A study of Homo sapiens with 4 samples.

Results

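The sites described here are the crosslinked sites listed for GTPBP8 and AUH at annotated 3′ untranslated regions (3′ UTRs) of nuclear genes. They were taken from 4 lists of crosslinked RNA sites, as every site that did not lie on the mitochondrial DNA (mtDNA) and whose annotation in its list named a 3′ UTR. This gave 408 sites of 2341 in the lists, or of the 2184 sites on nuclear chromosomes, in 324 genes. GTPBP8 replicates 1, 2 and 3 held 84, 161 and 77 of them, in 72, 151 and 74 genes, and the AUH library held 86, in 82 genes. The sites were compared with the 511 coding and 368 intronic sites of the same lists.

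The libraries were made by fPAR-CLIP from HEK293 cells, a human embryonic kidney line. The cells carried GTPBP8 with a FLAG tag (3 biological replicates) or AUH with a V5 tag (1 library) under a doxycycline-inducible promoter. Doxycycline (50 ng/ml) was present for 48 h and 4-thiouridine (4SU, 100 µM) for the last 16 h, and UV light of 312 nm then fixed protein to RNA over 5 min. Protein was pulled from whole-cell lysates with Flag or V5 beads, the RNA was trimmed with RNase T1, which cuts after G, and crosslinked 4SU was read as a T-to-C conversion. All 4 libraries therefore came from otherwise wild-type cells that made extra tagged protein, and a mock or input library was not analysed here. The AUH list had another layout, and the methods, which name PARpipe and PARalyzer, do not say whether it was made the same way, so that the bait, the tag and the site calling cannot be told apart in any difference between GTPBP8 and AUH.

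A 3′ UTR follows the stop codon of an mRNA and carries most of the signals that set its stability, location and translation. Among these are AU-rich elements, built around the pentamer AUUUA, which mark many short-lived mRNAs, such as those of cytokines and early response genes, for decay. AUH was first isolated as a protein that binds such elements, and is also an enoyl-CoA hydratase of leucine breakdown in mitochondria. GTPBP8 is a mitochondrial GTPase, and nuclear mRNAs are translated outside mitochondria.

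The sequences that the results turn on are given 5′ to 3′ on the RNA strand, as the lists print them (T for U, at most 30 nt of a site). Positions are on GRCh38. The first set shows the GTPBP8 sites with AUUUA, in capitals, in the genes MMP1, EIF1, EEF2 and NKRF. They lie at chr11:102790277-102790297 (minus strand), chr17:41691606-41691630 (plus), chr19:3976364-3976386 (minus) and chrX:119588806-119588827 (minus).
MMP1: ataatcttATTTAtacctcag
EIF1: tATTTAaacccttATTTAaataaaa
EEF2: tttctttcaatATTTAtttccag
NKRF: ttcATTTATTTAtaacttctac
The next set gives AUH sites with AUUUA in capitals, in SRSF2 at chr17:76734932-76734957 (minus) and ZNF207 at chr17:32379841-32379867 (plus), and the 3 AUH sites with most reads, none of which holds AUUUA. These lie in LAS1L at chrX:65512633-65512662 (minus), MIEN1 at chr17:39729372-39729401 (minus) and PMAIP1 at chr18:59903064-59903093 (plus).
SRSF2: taATTTAgtgaggtgaacgacttcag
ZNF207: ccctgctttATTTAgcctcgctatatg
LAS1L: aactcagttgtccaccacaggggaattttg
MIEN1: cctccactttgccctttgggtacaaagaag
PMAIP1: gtttttgccgaagattaccgctggcctact
The last set shows the GTPBP8 site with most reads, in MTRNR2L10 at chrX:55181567-55181595 (minus), above the stretch of the mitochondrial RNR2 site that it resembles, at chrM:3033-3061 (plus), with the base that differs in capitals. It also shows a histone site, HIST1H2AG at chr6:27133503-27133532 (plus), with the core of the histone stem-loop in capitals. The pair for CNBP, the 1 locus with a 3′ UTR site of both proteins, is the GTPBP8 site at chr3:129170062-129170090 and the AUH site at chr3:129170065-129170091 (both minus).
MTRNR2L10: ttcgtttgttcaacAattaaagtcctacg
RNR2: ttcgtttgttcaacGattaaagtcctacg
HIST1H2AG: gtccaaaccaacggctCTTTTCAGggccac
CNBP, GTPBP8: acttccataaataactttaattttagtat
CNBP, AUH: aacttccataaataactttaattttag

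The gene named for each site was checked against the RefSeq gene positions, which does not test the 3′ UTR class itself. The listed gene contained the site at 83 of 83, 160 of 161 and 75 of 77 GTPBP8 sites with a known gene, and at 86 of 86 AUH sites. The 3′ UTR sites had few reads. The median was 6, 7 and 6 reads in the GTPBP8 libraries and 5 in AUH, against 9, 8, 10 and 6 at other nuclear sites. No site in the lists had fewer than 5 reads, and 76.5% ± 5.20 (SD, n = 3) of GTPBP8 3′ UTR sites and 91.9% of AUH 3′ UTR sites had fewer than 10. Most single sites in this description therefore stand near the lower limit of the lists. The sites were 27 to 28 nt long at the median in the GTPBP8 libraries and 27 nt in AUH.

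Whether 3′ UTRs made up more of the nuclear sites of GTPBP8 or of AUH depended on what was counted. By number of sites, 3′ UTRs held 20.1%, 23.2% and 19.3% of the nuclear sites in GTPBP8 replicates 1, 2 and 3 (20.9% ± 2.01, SD, n = 3) and 12.8% in AUH (95% Wilson interval 10.5% to 15.5%). All 3 GTPBP8 libraries were above AUH by this count (two-sided exact permutation test over libraries, p = 0.25, the smallest that 3 against 1 allows). By number of reads the order was the opposite, and again the groups did not overlap. The sites held 1093 of 26677, 1756 of 32665 and 864 of 31107 nuclear site reads of GTPBP8, which is 4.10%, 5.38% and 2.78% (4.08% ± 1.30), and 799 of 7795, or 10.3%, in AUH (exact permutation test, p = 0.25). With the read totals that the AUH list itself gives, which appear to be multiplied at annotated sites, the AUH share was 14.96%.

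The read share has the reads of all other nuclear RNAs in its denominator. The 10 nuclear sites with most reads outside 3′ UTRs held 57.1%, 50.5% and 56.7% of nuclear site reads in GTPBP8 replicates 1, 2 and 3, and 18.9% in AUH. Set against coding sites alone, the other large class of mRNA sites, the difference by reads turned with 1 group of genes. Of the reads at 3′ UTR and coding sites together, 59.3%, 53.0% and 56.2% fell in 3′ UTRs in GTPBP8 (56.1% ± 3.16) and 46.9% in AUH. Of the sites of both classes, 47.9% ± 1.56 and 35.5% lay in 3′ UTRs (exact permutation test, p = 0.25 for reads and for sites). Nuclear copies of the mitochondrial RNR2 gene (the MTRNR2L genes, described below) held 455, 315 and 314 of the GTPBP8 3′ UTR reads. Without them, 3′ UTRs held 45.9%, 48.0% and 45.0% of the reads of both classes in GTPBP8 (46.3% ± 1.56), and the AUH value of 46.9% lay within their range (exact permutation test, p = 1), while the shares of sites were 47.2% ± 1.57 and 35.5%.

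**Figure D1:**
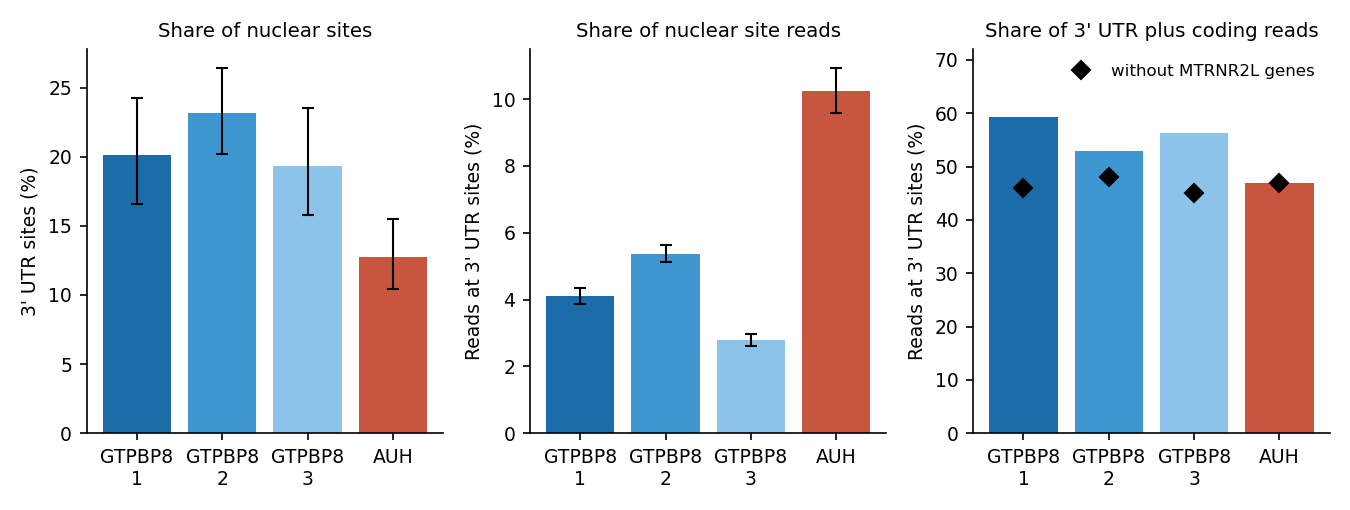
Share of 3′ UTR sites in each library among nuclear sites (left), nuclear site reads (middle) and the reads of 3′ UTR plus coding sites (right, with black diamonds for the values without the MTRNR2L genes), each in percent. Bars are single libraries and error bars are 95% Wilson intervals, which cover counting error only. AUH is below the 3 GTPBP8 libraries on the left (12.8%) and above them in the middle (10.3%), and on the right its bar (46.9%) is below theirs but lies within the range of the diamonds (45.0% to 48.0%).

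Few genes recurred. Of the 251 genes with a GTPBP8 3′ UTR site, 212 had one in 1 library, 32 in 2 and 7 in all 3. The 7 were MTRNR2L10 and MTRNR2L3, named for peptides like humanin, EEF2 (translation elongation), EIF1 (start codon selection), MMP1 (an interstitial collagenase), TMBIM6 (an endoplasmic reticulum protein that limits cell death) and HMGA1 (a non-histone chromatin protein). At the same position, 4 loci had a site in all 3 libraries, in MTRNR2L10, MTRNR2L3, MMP1 and HMGA1, and a further 23 of 376 had one in 2. EEF2, EIF1 and TMBIM6 had no locus common to the 3 libraries, although pairs of libraries shared 1, 2 and 2 loci in them.

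The MMP1 site had the same start and end in each GTPBP8 library, with 46, 26 and 27 reads, of which 95.7%, 96.2% and 92.6% were converted. The AUH list held no 3′ UTR site of MMP1. MMP1 held 0.172%, 0.0796% and 0.0868% of nuclear site reads, so replicate 1 stood above the other two. HMGA1 had 11, 6 and 9 reads at its shared site. EIF1 had 13, 11 and 12 reads, about level across libraries, and was also the 1 gene with a 3′ UTR site in all 4 lists (5 AUH reads, at another position). EEF2 varied most, with 21, 97 and 8 reads over 2, 3 and 1 sites, and TMBIM6 had 41, 51 and 9 reads over 4, 3 and 1 sites. The libraries did not give these genes in a common proportion.

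Some loci were found in 2 GTPBP8 libraries with higher counts than most. A site in ATAD5, whose product unloads PCNA from DNA, had 20 and 41 reads in replicates 1 and 2. One in ARF1, a GTPase of vesicle budding, had 36 and 15 reads in replicates 2 and 3, and one in NME1, a nucleoside diphosphate kinase, had 25 and 17. These 3 lacked a listed site in the remaining replicate. Sites in TWIST1 (a transcription factor, 6 and 15 reads), MRPS21 (a mitoribosomal protein, 9 and 14 reads) and ALYREF (mRNA export, 9 and 6 reads) were shared by replicates 1 and 2.

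In the AUH library, LAS1L, an endonuclease of cytosolic pre-rRNA processing, held 172 of 799 3′ UTR reads (21.5%), at 1 site 51 nt from the 3′ end of the gene, and 98.8% of those reads were converted. MIEN1 followed with 71 reads, PMAIP1 (NOXA, a BH3-only protein) with 45 at 2 sites and PPP2R2A (a regulatory subunit of PP2A) with 31. CYTH1, an exchange factor for ARF GTPases, had 20 reads, PRDX1, a peroxiredoxin, 15, CSTF1, of the polyadenylation machinery, 11 at 2 sites, and ARL15, a small GTPase, 10. Of these 8 genes, PMAIP1 alone had a 3′ UTR site in a GTPBP8 library, with 5 reads at another position in replicate 2. CNBP and ZNF207 were level with ARL15, with 10 AUH reads each at 2 sites. Both had a GTPBP8 3′ UTR site, with 12 reads in replicate 3 for CNBP and 6 in replicate 2 for ZNF207. The 5 genes with most reads held 49.6%, 28.7% and 44.7% of 3′ UTR reads in GTPBP8, with MTRNR2L10 first in each library, and 42.4% in AUH, within the GTPBP8 range.

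**Figure D2:**
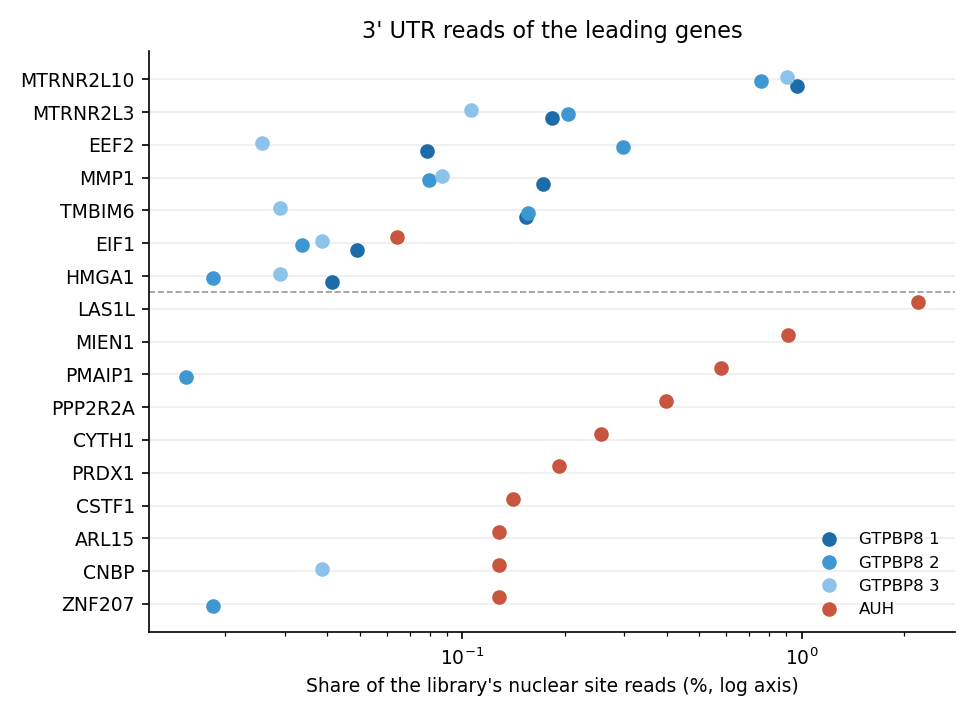
Reads at 3′ UTR sites as a share of the nuclear site reads of each library (percent, log axis), for the 7 genes with a site in every GTPBP8 library (above the dashed line) and the other genes among the 10 with most AUH reads (below it). A point is 1 library, and a missing point means that no site was listed. EIF1 is the gene with points of all 4 libraries, and LAS1L has the highest share in AUH (2.21%).

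The 3′ UTR reads of GTPBP8 were led by genes of the MTRNR2L group. These genes are nuclear copies of the mitochondrial RNR2 gene, which encodes the large mitochondrial rRNA, and RefSeq lists those named here as pseudogenes. They held 455, 315 and 314 reads, or 41.6%, 17.9% and 36.3% of 3′ UTR reads (32.0% ± 12.4), on 4, 2 and 2 sites. AUH had 0 of 799 reads there (exact permutation test, p = 0.25). Sites below the lower read limit of the lists are not seen, so this count sets no upper limit on the AUH share. The MTRNR2L10 site alone had 252, 248 and 281 reads, and its 29 nt differ from the RNR2 site at chrM:3033-3061 by 1 mismatch, as printed above. In replicate 1 a site in MTRNR2L1 had a further 148 reads over 78 nt, with 3 mismatches to chrM:2984-3061. MTRNR2L3 had 49, 67 and 33 reads, and its site differed from the closest stretch of any listed mitochondrial site by 14 mismatches. The parts of RNR2 outside the listed sites were not compared, so this count does not show how far the site differs from RNR2. Whether reads placed on these copies came from the mitochondrial rRNA was not tested. Without all sites of genes named MTRNR2L, the 3′ UTR share of nuclear reads was 2.94% ± 1.40 in GTPBP8 and 10.3% in AUH, and the median A+U content described next was the same to 3 digits.

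AU content separated 3′ UTR from coding sites in every library. The median share of A and U in a 3′ UTR site was 59.7%, 63.0% and 65.5% in GTPBP8 replicates 1, 2 and 3 and 55.2% in AUH. It was above that of coding sites by 9.69, 11.3, 15.5 and 8.88 percentage points (4 of 4 libraries, exact sign-flip test, p = 0.13, the smallest that 4 libraries allow). Against intronic sites the GTPBP8 libraries were higher by 4.76, 2.50 and 8.68 points, and AUH was lower by a difference of -3.45 points (p = 0.375, exact sign-flip test). The AUH sign depended on the weight given to deep sites, since its difference from introns was 7.18 points among the few sites with at least 10 reads and 1.48 points for means weighted by reads. Whether the sites were richer in A and U than the 3′ UTR around them was not analysed here.

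Between the proteins, the 3′ UTR sites of AUH were the less AU-rich. Each GTPBP8 library was above AUH (62.7% ± 2.92 against 55.2%, exact permutation test, p = 0.25), by 7.55 points at the mean. The other nuclear sites as a pool differed the same way, 55.5% ± 0.840 against 50.0%, and so did coding sites, 50.6% ± 0.963 against 46.3%. Intronic sites did not. Their median was 57.4% ± 2.81 in GTPBP8 and 58.6% in AUH, which lay within the GTPBP8 range of 54.9% to 60.5%. The difference between the proteins was thus not found in every class of site. Within each library, single 3′ UTR sites ranged widely, from 22.6% in replicate 2 to 95.8% at a TXN site of the same library, and from 23.8% to 83.9% in AUH.

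**Figure D3:**
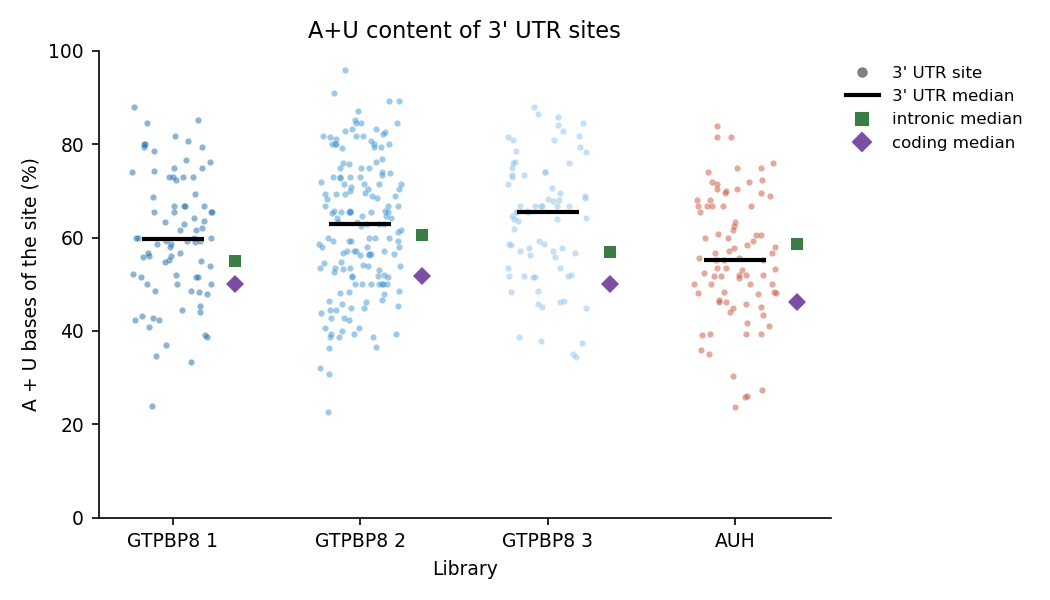
A+U content of each 3′ UTR site (points, percent of the bases of the site) by library, with the median of 3′ UTR sites (black line), intronic sites (green square) and coding sites (purple diamond). The 3′ UTR median is above the coding median in the 4 libraries, and below the intronic median in AUH (55.2%).

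Of the 4 bases, G differed most between the proteins. G made up 11.0%, 10.9% and 11.1% of the bases of GTPBP8 3′ UTR sites (11.0% ± 0.0685) and 20.8% of those of AUH, a difference of -9.82 points (exact permutation test, p = 0.25). C ran the other way, 27.4% ± 1.71 against 23.7%. U was 33.1% ± 0.215 against 29.6% and A was 28.6% ± 1.52 against 25.9%. Thus the GTPBP8 libraries were close together in G and U, and less so in A and C. Other nuclear sites held 16.3% ± 0.325 G in GTPBP8 and 23.6% in AUH, so 3′ UTR sites differed in G from other nuclear sites of the same library by -5.61, -5.32, -4.94 and -2.72 points (lower in 4 of 4 libraries, exact sign-flip test, p = 0.13).

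RNase T1 leaves a G at the 3′ end of a fragment. The last base was G at 50.0%, 55.3% and 67.5% of GTPBP8 3′ UTR sites and at 72.1% of AUH 3′ UTR sites. Without the last base, G was 9.27% ± 0.358 in GTPBP8 and 18.97% in AUH, and the difference was as large (-9.70 points). The part of the digestion in these values beyond the last base was not tested.

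**Figure D4:**
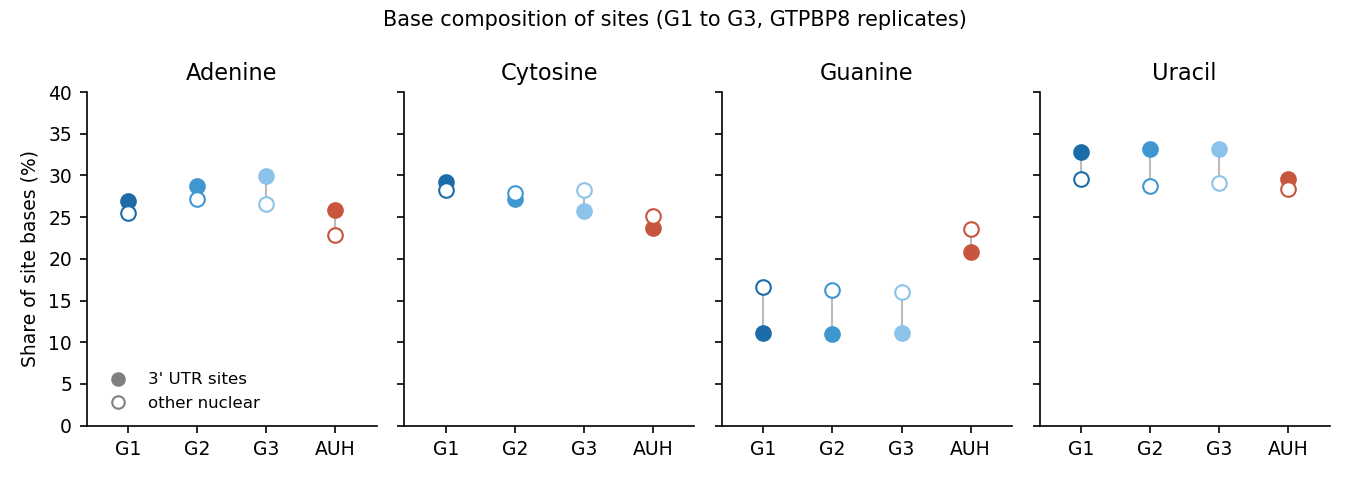
Share of each base (percent) among all bases of 3′ UTR sites (filled circles) and of other nuclear sites (open circles), for GTPBP8 replicates 1 to 3 (G1 to G3) and AUH. Guanine is near 11.0% at the 3′ UTR sites of the GTPBP8 libraries and 20.8% at those of AUH.

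AUUUA, the core of AU-rich elements, was found at few sites of either protein. It was counted on the RNA strand of the site, and on the other strand as UAAAU. It stood in 5 of 84, 11 of 161 and 8 of 77 GTPBP8 3′ UTR sites, or 5.95%, 6.83% and 10.4%, and in 4 of 86 AUH sites, or 4.65% (95% Wilson interval 1.82% to 11.4%). AUH, known as the AU-rich element binder of the pair, was thus the lowest of the 4 libraries, with an interval that takes in the value of each GTPBP8 library (7.72% ± 2.35 in GTPBP8, exact permutation test, p = 0.5). The other nuclear sites held AUUUA at 6.01%, 6.37% and 7.17% in GTPBP8 and 3.91% in AUH, close to the 3′ UTR share except in replicate 3. Coding sites alone held it at 4.30%, 2.72% and 3.85% in GTPBP8 and 0.641% in AUH, below the 3′ UTR share of each library. Intronic sites held it at 4.35%, 8.91% and 8% in GTPBP8 and 7.02% in AUH. The intronic share was above the 3′ UTR share in replicate 2 and AUH, and below it in replicates 1 and 3. The complement was as frequent at 3′ UTR sites, in 10, 16, 5 and 5 sites. Per 1000 nt, AUUUA occurred 3.25 ± 0.992 times in GTPBP8 3′ UTR sites and 1.64 times in AUH. Without GTPBP8 replicate 3, the difference between the proteins was 1.74 points in place of 3.07 for the share of sites and 1.06 in place of 1.61 per 1000 nt.

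The sites with AUUUA differed in depth between the proteins. The 4 AUH sites, in APOOL, SNRNP70, SRSF2 and ZNF207, had 5 reads each, the least a listed site could have, and held 2.50% of 3′ UTR reads. In GTPBP8, sites with AUUUA held 7.63% ± 0.453 of 3′ UTR reads (exact permutation test, p = 0.25), led by the MMP1 site. The others with most reads were a site in C20orf24 with 26 reads, as many as MMP1 in that library (replicate 2), EEF2 with 19 and 8 (replicates 2 and 3), YARS, a tyrosyl-tRNA synthetase, with 14 (replicate 1) and EIF1 with 13 and 7 (replicates 1 and 3). MMP1 and EIF1 recurred with the same ends, and the EIF1 site holds the pentamer at 2 places in its 25 nt. The longer form UAUUUAU stood in 2, 3 and 2 GTPBP8 sites and in 0 of 86 AUH sites, which allows a share of up to 3.49%.

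Runs of U were more frequent at 3′ UTR sites than at other nuclear sites in each GTPBP8 library. UUUUU, searched on the RNA strand, stood in 11.9%, 16.1% and 14.3% of 3′ UTR sites and in 6.31%, 4.31% and 4.67% of other nuclear sites of the GTPBP8 libraries. In AUH the shares were 12.8% and 12.1%. At 3′ UTR sites the proteins did not differ beyond the spread of the GTPBP8 libraries (14.1% ± 2.13 against 12.8%, exact permutation test, p = 0.75). At other nuclear sites AUH was above each GTPBP8 library (5.10% ± 1.06, p = 0.25, exact permutation test). The polyadenylation signal AAUAAA was in 4, 10 and 4 GTPBP8 sites and 2 AUH sites, or 4.76%, 6.21%, 5.19% and 2.33%, against 2.10%, 1.50%, 2.80% and 1.02% of other nuclear sites. UGUANAUA, the motif of Pumilio proteins, was found in none of the 3′ UTR sites of the 4 libraries, on the RNA strand.

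A list of 23 mRNAs known for AU-rich elements (cytokines, growth factors and early response genes) had no 3′ UTR site in any of the 4 libraries. Nor had a list of 10 RNA-binding proteins of AU-rich elements and Pumilio motifs, such as ELAVL1, TIA1, KHSRP and ZFP36, which leaves out others. With 84, 161, 77 and 86 sites, a count of 0 allows up to 3.57%, 1.86%, 3.90% and 3.49% of 3′ UTR sites. The bait genes GTPBP8 and AUH, made from the transgenes in these cells, also had no 3′ UTR site in the 4 libraries. Whether the transgenes carry these 3′ UTRs is not known here, so this count cannot be read as a lack of binding. The GTPBP8 gene had 1 site of another class in replicate 2, and the AUH gene had 2 in the AUH library. Translation factors with EEF or EIF symbols had 3, 9 and 5 sites in GTPBP8 (EEF2 and EIF1 in each library) and 3 in AUH (EEF1B2, EIF1 and EIF6), of 6, 26, 12 and 13 sites of any class. The AUH site in EEF1B2 lay on the small nucleolar RNA SNORA41 in RefSeq, as did the AUH site in TAF1D on SNORD5 and a replicate 2 site in TPT1 on SNORA31B, so these RNAs cannot be told apart there from the mRNA. Splicing factors of the hnRNP and SR families had 1, 5, 1 and 2 sites, mitoribosomal proteins 1, 2, 1 and 0, and subunits of oxidative phosphorylation 1 in each library. Of the cytosolic ribosomal protein genes found by RPL and RPS symbols, whose mRNAs had 7, 7, 6 and 15 sites of any class, RPL37A in GTPBP8 replicate 2 had the one 3′ UTR site, and its position lay outside the RefSeq gene. The pattern leaves out FAU (7 reads, replicate 2) and RPL36AL (6 reads, replicate 1), which also encode ribosomal proteins and had a 3′ UTR site. A list of abundant mRNAs had 2, 6, 3 and 1 3′ UTR sites, of which 2, 3 and 1 in GTPBP8 were those of EEF2 and 1 in replicate 3 was in EEF1A1, both counted above. The others were in TPT1 and FTL (replicate 2), ACTB (replicate 3) and TUBA1B (AUH).

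Replication-dependent histone mRNAs end in a stem-loop in place of a poly(A) tail, and some GTPBP8 sites lay on it. These histone genes had 4, 3 and 1 GTPBP8 3′ UTR sites, of 16, 17 and 6 sites of any class, and 0 in AUH. Most of their sites thus lay outside annotated 3′ UTRs, as did most nuclear sites. Over all nuclear sites of GTPBP8 replicates 1, 2 and 3, 20.1%, 23.2% and 19.3% lay in 3′ UTRs. The histone variant gene H2AFX, which is not on the list, had a 3′ UTR site with 7 and 8 reads in replicates 1 and 2. The core of the stem-loop, CUUUUCAG, with GGCN directly before it and NGCC after it, stood in 4, 2 and 1 of the GTPBP8 3′ UTR sites, all in histone genes, with 44, 43 and 11 reads. It was searched on the RNA strand, and it was in 1, 2 and 0 other nuclear sites of GTPBP8, of 333, 534 and 321. The sites in HIST1H2AG (17 and 25 reads in replicates 1 and 2) and HIST1H1E (8 and 11 reads in replicates 1 and 3) recurred and lay 3 or 4 nt from the end of the gene. The AUH list held the same pattern at 3 sites with 27 reads that have no annotation there, so the difference in histone 3′ UTR sites between the proteins cannot be told apart from the annotation of the lists. Some histone genes are near copies of each other, and the sites of HIST1H1E and HIST2H2BE had the same sequence, with at most 2 mismatches, as another listed site of the library.

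3′ UTR sites of GTPBP8 lay nearer at the median to the 3′ ends of genes, along the genome, than those of AUH. The median distance to the end of the RefSeq gene was 872, 1042 and 1049 nt in GTPBP8 and 1456 nt in AUH (988 ± 100 against 1456 nt, exact permutation test, p = 0.25). Within 1000 nt of the end lay 54.2%, 48.1% and 46.7% of GTPBP8 sites and 36.0% of AUH sites (p = 0.25, exact permutation test). Within 100 nt lay 6, 14 and 3 GTPBP8 sites, or 7.23%, 8.75% and 4.00%, and 6 AUH sites, or 6.98%. A gene's annotated end is that of its longest form, so distances along shorter transcripts would be smaller. Any intron between a site and the gene end is counted in its distance. Some AUH sites are also annotated as coding, such as those in RPP30 at 7857 nt and CSTF1 at 7308 nt. The distances without such sites were not analysed.

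**Figure D5:**
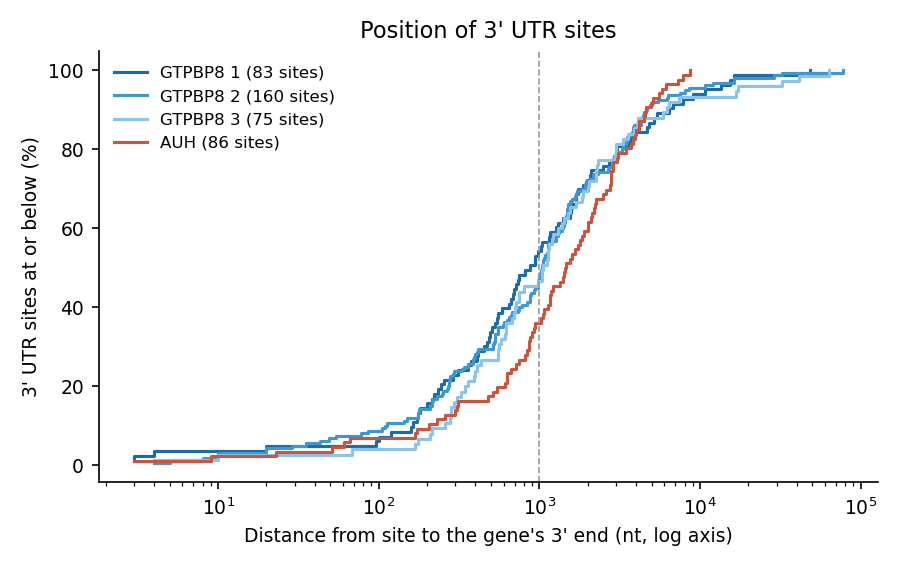
Cumulative share of 3′ UTR sites (percent) by genomic distance to the 3′ end of the RefSeq gene (nt, log axis), 1 line per library, for sites inside their gene. The dashed line marks 1000 nt, where the GTPBP8 lines stand between 46.7% and 54.2% and the AUH line at 36.0%.

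Reads at 3′ UTR sites were mostly converted. In GTPBP8, 83.0%, 82.5% and 86.5% of 3′ UTR reads carried a T-to-C conversion (84.0% ± 2.2), against 65.1%, 64.6% and 62.8% at other nuclear sites. In AUH the shares were 95.6% and 72.7%. The 3′ UTR share was higher in 4 of 4 libraries, by 17.9, 17.9, 23.7 and 22.9 points (exact sign-flip test, p = 0.13). Against coding sites the difference varied between libraries, with -0.240, 2.87, 11.6 and 5.90 points (p = 0.25, exact sign-flip test), while intronic sites were lower in each library, by 25.1, 26.8, 33.7 and 13.1 points. AUH was above each GTPBP8 library at 3′ UTR sites (exact permutation test, p = 0.25), but this rests on how AUH reads were counted. With the deposited column of AUH read totals in place of converted reads divided by the converted fraction, the AUH share was 43.98%, below each GTPBP8 library. The medians over 3′ UTR sites were close to full conversion, 96.5% ± 6.09 in GTPBP8 and 100% in AUH. Those over intronic sites were as high, 99.1% ± 1.60 and 100%, so the lower intronic share held for pooled reads and not for the median site. Over all other nuclear sites the medians were 86.7% ± 3.24 and 100%. The deepest intronic site had 941 of 2219, 1125 of 4188 and 1176 of 3007 intronic reads in GTPBP8 replicates 1, 2 and 3.

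Sites were shared by few libraries. Between GTPBP8 libraries, 11.5% ± 5.21 of the 3′ UTR sites of one library overlapped a 3′ UTR site of another (at least 1 nt on the same strand, 6 ordered pairs, range 7.14% to 19.5%), and coding sites did so at 12.3% ± 4.08. The pairs reuse the same 3 libraries, so this SD is no error of independent values, and without replicate 2 the shared share was 7.47%. The shared sites were the deeper ones, with a median of 9 to 29.5 reads against 6 or 7 at sites not shared, and they held 38.1% ± 8.98 of 3′ UTR reads. Among sites with at least 10 reads, 22.6% ± 11.9 were shared. By gene, 19.4% ± 7.38 of the genes of one library had a 3′ UTR site in another.

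With AUH, the GTPBP8 lists shared 0, 0 and 1 3′ UTR sites. Coding sites were as little shared, with 0 of 93, 184 and 78. In addition, 1 3′ UTR site of GTPBP8 replicate 2 overlapped an AUH nuclear site of another class. Likewise, 1 AUH 3′ UTR site overlapped a replicate 2 nuclear site of another class. The 1 shared 3′ UTR locus was in CNBP, which encodes a zinc finger protein that binds single-stranded nucleic acid. It had 12 reads in GTPBP8 replicate 3 and 5 in AUH. The pair of sites, printed above, is 82.8% and 81.5% A+U and holds no AUUUA on the RNA strand. By gene, 9 were shared, which is 3.59% of the GTPBP8 genes and 11.0% of the AUH genes. They were CNBP, COQ9 (coenzyme Q synthesis), EIF1, MAZ (a transcription factor), PEG10 (a gene of retrotransposon origin), PMAIP1, SF1 (branch point recognition in splicing), TMED5 (vesicle cargo transport) and ZNF207 (a kinetochore protein). In all but CNBP the AUH site and the GTPBP8 site lay at different positions. PEG10 had 21 reads at 2 sites in GTPBP8 replicate 1 and 6 in AUH, and SF1 had 6 and 9 in replicates 1 and 3 and 5 in AUH. The deepest site in a shared gene was that of PMAIP1, with 40 AUH reads.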

How the data were processed

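The authors processed the reads with Bcl2fastq (2.17.1 in the submitters' notes), Cutadapt, PARpipe and PARalyzer, with hg38 as the build, and deposited 1 list of sites per library. The deposited read columns of the GTPBP8 lists are unnormalized counts, and the deposited converted shares are fractions, which were multiplied by the reads to give converted reads. In the AUH list deposited by the authors, converted reads were taken to be expected counts, since 1 of 759 is not whole, and were divided by the converted fraction and rounded to give reads. Depth is the number of nuclear site reads, 26677, 32665 and 31107 for GTPBP8 replicates 1 to 3 and 7795 for AUH. Intervals for single shares are 95% Wilson intervals, cover counting error only, and count PCR copies as reads.

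Sites were set to 1-based positions and taken as 3′ UTR sites by the annotation of each list, in which 75 of the 86 AUH sites have that class alone. GTPBP8 values are means ± SD over 3 libraries. AUH was compared with them by a two-sided exact permutation test over libraries, and site classes within libraries by an exact sign-flip test. Neither test can reach 0.05 here (smallest p 0.25 and 0.13), and p-values are not adjusted. No test was made over sites or genes. Distances to gene ends, gene classes and biotypes come from RefSeq. Sequences were taken from the site lists, and comparisons with mitochondrial sites were ungapped and limited to listed sites.

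The members, the gene lists, the tests and the alternatives were chosen with earlier results of these data known. The genes named are those with a 3′ UTR site in every GTPBP8 library, the 10 with most AUH reads, those in both lists, the members of 10 gene lists and the sites with AUUUA. C20orf24, NME1, ARF1, ATAD5, TWIST1, MRPS21 and ALYREF are named for recurrence or depth after their values were seen. Base composition apart from A+U, the denominator of 3′ UTR plus coding sites and the results without MTRNR2L genes were added after the data were seen. Alternatives tried were a minimum of 10 reads, 3′ UTR annotation only and no sites like a listed mitochondrial site (at most 2 mismatches). Others left out replicate 1, 2 or 3, or used other denominators, weights and motifs. Scripts ran in Python 3.11.15 with pandas 2.3.3, numpy 2.4.6, matplotlib 3.10.9 and scipy 1.17.1. The counting functions were tested on simulated data (200 of 200 planted overlaps of 1 nt were found). Reads outside sites and coverage tracks are not analysed here.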

Additional observations from a re-analysis of the deposited data

How the results depend on the processing

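No paired analysis was possible because AUH is 1 library with no replicate number. Apart from the exceptions given here, the mean difference of each comparison kept its direction under the alternatives run. The 3′ UTR share of nuclear site reads, lower in GTPBP8 by a difference of -6.17 points, was higher by 9.26 points (56.1% against 46.9%) with the reads of 3′ UTR plus coding sites as the denominator, which leaves out all other RNAs, and -0.583 points without the MTRNR2L genes as well. With the deposited AUH totals it was -10.9 points. The converted share, lower in GTPBP8 by -11.6 points, was higher by 39.99 points with the deposited AUH totals. AUUUA per 1000 nt was higher in GTPBP8 by 1.61, while UUUUU in its place was lower by -1.60. The overlap between GTPBP8 libraries (11.5%) was 22.6% among sites with at least 10 reads and 19.4% with genes in place of sites. The overlap of GTPBP8 3′ UTR sites with AUH (0.433%) was 4.54% with genes.

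Without each GTPBP8 replicate in turn, the difference ranged from 6.99 to 8.90 points for the share of sites, from -6.81 to -5.51 for the share of reads, from 6.15 to 9.07 for A+U, from 1.74 to 3.96 for the share with AUUUA and from -12.9 to -10.9 for the converted share. The overlap ranged from 7.47% without replicate 2 to 14.4% without replicate 1. Overlap with AUH was 0 without replicate 3, which holds the 1 shared site. With a minimum of 10 reads, AUUUA stood in no AUH 3′ UTR site and in 10.3% of those of GTPBP8, and the A+U difference from introns in GTPBP8 was 0.318 points in place of 5.31, with 1 library at -3.28. That of AUH, -3.45 points, was 7.18 with this minimum and 1.48 for means weighted by reads. A comparison of sites with the sequence around them was planned and not run, since it needs a genome sequence. Depth limits single sites most: 79 of 86 AUH 3′ UTR sites had under 10 reads.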
